A study of Mus musculus with 8 samples.

Results

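The circadian clock genes described here are 10 genes found by symbol in the deposited expression table of the posterior knee joint capsule: Arntl, Clock, Per1, Per2, Per3, Cry1, Cry2, Nr1d1, Nr1d2 and Dbp. All 10 were among the 16464 genes listed, and all 10 had a mean value of at least 0.5 over the libraries, the filter that left 15120 genes for testing. Total RNA was sequenced from 4 cast and 4 naive capsules of male wild-type C57BL/6 mice that were 10 weeks old. Cast mice had worn a cast that fixed the knee joint at 140 degrees during the last 2 weeks, starting when they were 8 weeks old by the design text. Naive mice have no handling given in the labels. The labels do not say whether each library is a different mouse, so p values measure the spread between these samples, which may be technical. The labels give no hour of tissue collection, so a difference in hour between libraries or between groups was not tested.

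The clock is a feedback loop that runs in nearly every cell type and makes the mRNA levels of its own genes swing over the day. The proteins of Arntl, also called Bmal1, and Clock bind E-box sequences and switch on the Period, Cryptochrome, Rev-erb and Dbp genes, and the Period and Cryptochrome proteins then block that activation. The Rev-erb receptors, made from Nr1d1 and Nr1d2, repress genes that carry ROR elements, Arntl and Nfil3 among them, whereas ROR receptors activate the same elements. DBP activates genes through D-boxes, on which the NFIL3 protein acts as a repressor, and in most mouse tissues Dbp and Arntl peak at nearly opposite times of day.

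These elements could be read in the promoter sequences of several members, which are shown because the members are described below by the arm of the loop they belong to. RefSeq start sites (build GRCm38.p6) gave windows of 250 bases before to 50 bases after a start for 9 of the 10 genes; Per2 had no window. Both strands were searched for the E-box CACGTG, the related sequence CACGTT, the D-box TTATGTAA and the ROR element core TAGGTCA. Of 32851 windows of all genes, 7.15% held CACGTG, 4.68% CACGTT, 0.938% TTATGTAA and 2.61% TAGGTCA. At least 1 of the 4 was found in 6 of the 9 genes with a window, namely Arntl, Cry1, Cry2, Nr1d1, Per1 and Per3. Among other clock-pathway genes it was found in 8 of 21 with a window. These counts are per gene, and some genes had more than 1 window. The shares above are per window and per sequence, so they are no direct background for these counts. No printed matches overlap each other. Sequences run 5′ to 3′ in the direction of the gene, and capitals mark the match on either strand. The Nr1d1 and Cry1 stretches are the bases upstream of the start of the only genes of the 10 that passed the test below, Nr1d1 with a CACGTT match and Cry1 with a CACGTT and a CACGTG match.
Nr1d1, chr11:98775378-98775627, minus strand: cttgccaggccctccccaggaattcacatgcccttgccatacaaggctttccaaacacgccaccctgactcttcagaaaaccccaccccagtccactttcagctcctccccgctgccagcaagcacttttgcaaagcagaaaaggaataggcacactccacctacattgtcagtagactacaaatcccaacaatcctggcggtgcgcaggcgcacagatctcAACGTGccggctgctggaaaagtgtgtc
Cry1, chr10:85185065-85185304, minus strand: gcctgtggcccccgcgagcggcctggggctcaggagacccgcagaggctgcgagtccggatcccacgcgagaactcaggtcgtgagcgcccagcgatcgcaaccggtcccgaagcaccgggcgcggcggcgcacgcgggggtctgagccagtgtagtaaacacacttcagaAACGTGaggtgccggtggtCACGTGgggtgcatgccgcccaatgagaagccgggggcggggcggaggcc

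Short stretches of 30 bases round the matches show an E-box of Per1, a D-box of Per3 and the ROR element cores of Arntl and Nfil3, whose values are given below. Per1 had 2 windows. Its match lay in the window of a start inside the annotated gene, which begins at base 69095217, and the other window held no match.
Per1, chr11:69098772-69098801, plus strand: gcacccaagtcCACGTGcagggatgtgtgt
Per3, chr4:151044852-151044881, minus strand: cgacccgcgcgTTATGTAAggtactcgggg
Arntl, chr7:113207530-113207559, plus strand: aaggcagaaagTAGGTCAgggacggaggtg
Nfil3, chr13:52981033-52981062, minus strand: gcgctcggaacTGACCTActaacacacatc

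Values are normalised read counts, that is read counts scaled by the authors to a common library size. Cast libraries held 5956148 to 7381255 recovered reads, and naive replicates 1 to 3 held 6038095 to 6805349. Naive replicate 4 was the shallowest library with 1503880 reads, so 1 read was worth 0.647 there against 0.133 to 0.165 in the other libraries. Pearson's r across all listed genes (log2 values; genes are not independent replicates) lay between 0.903 and 0.915 for pairs of this library with another naive one, and between 0.983 and 0.985 for pairs of naive replicates 1, 2 and 3. Fibroblast genes of the capsule such as Col1a1 and Prg4 summed to 25893 to 43768 in cast and 27420 to 46060 in naive libraries, and 1 of these 8 markers passed the test, upward. Skeletal muscle genes, 15 in the list and none at 0 in a whole group, summed to 20.7 to 407 in cast and 127 to 3057 in naive libraries, where naive replicate 4 had the 127, and 7 of them fell. Fat cell genes summed to 3269 to 13342 in cast and 9652 to 15207 in naive libraries, and 4 of 10 fell. Neutrophil genes summed to 667 to 5961 in cast and 23.1 to 66.8 in naive libraries, and erythroid genes to 3942 to 19840 in cast and 1175 to 1773 in naive libraries. Of these, 7 of 10 listed neutrophil genes and 8 of 8 erythroid genes rose, with Hbb-bs at 0 in a whole group. No endothelial or macrophage marker passed. Over all genes tested, 12.0% passed. In such bulk tissue, fewer cells of a type and less RNA per cell cannot be told apart.

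After 2 weeks in a cast, Cry1 was higher and Nr1d1 was lower than in naive capsules, and the other 8 clock genes did not pass the test. Cry1, which encodes a repressor of the CLOCK and ARNTL pair, was 2.01-fold higher on the log2(value + 1) scale. Nr1d1, which encodes the receptor Rev-erb alpha, was 2.86-fold lower on that scale. Thus 2 of 10 members passed the test, against 12.0% of all 15120 genes tested, and the member list as a whole did not stand far from that background. By direction, 1 of 10 was higher, against 6.51% of all genes, and 1 of 10 was lower, against 5.46% of all genes. In 2 of 10 members all 4 values of a group lay beyond all 4 of the other, as in 20.5% of all genes. The median log2 fold change of the members was -0.54, against 0.07 over all genes tested. A negative value was seen in 8 of 10 members, of which only Nr1d1 passed, against 6691 of all 15120 genes tested. Each log2 fold change is the mean log2(value + 1) of the cast libraries minus that of the naive libraries, and adjusted p values are from limma with Benjamini-Hochberg adjustment over all genes tested, called at 0.05.

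**Figure D1:**
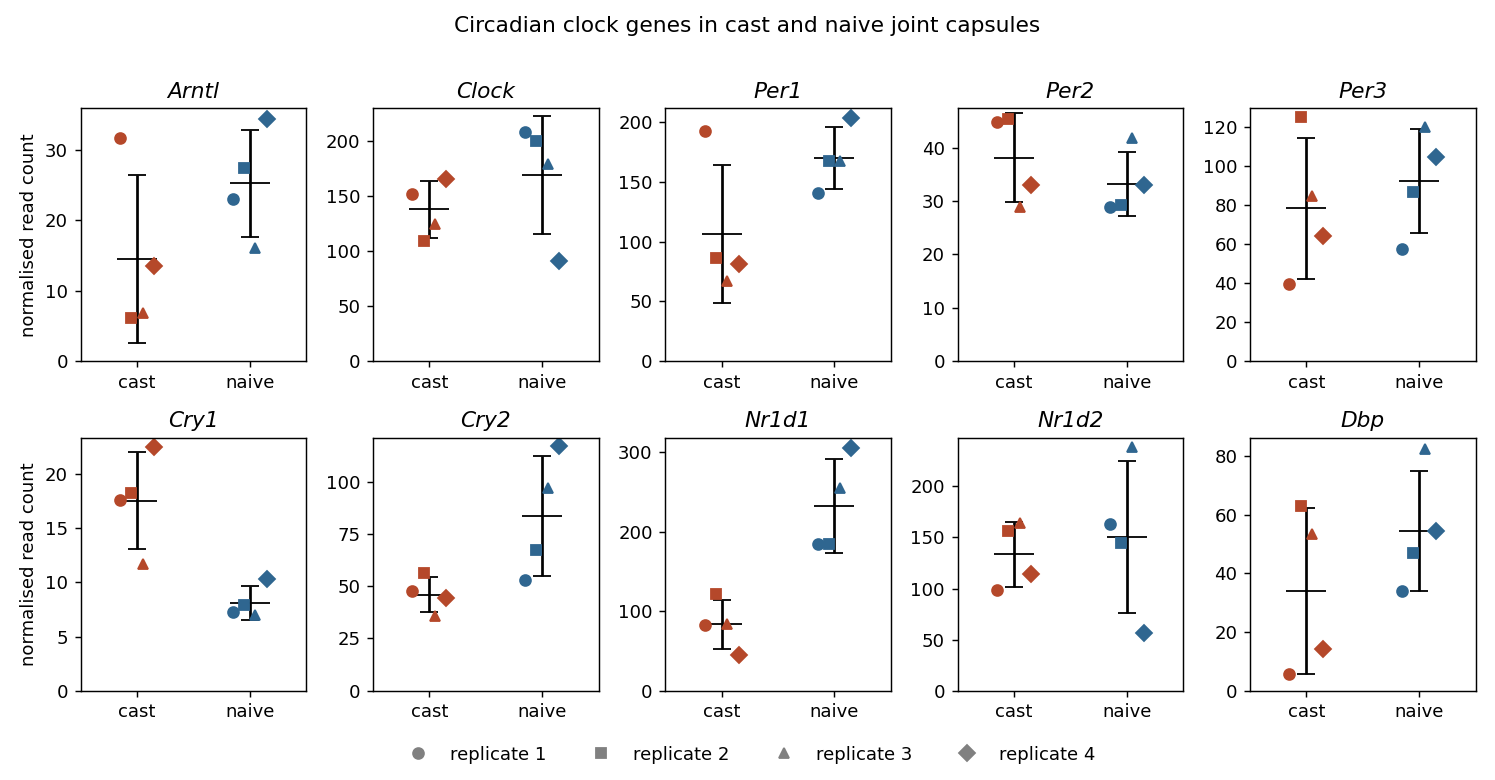
Normalised read count of each of the 10 clock genes in the 4 cast and the 4 naive libraries, with marker shapes for replicates and bars for the mean ± SD. The groups do not overlap for Cry1 and Nr1d1, and the cast values of Dbp run between 5.77 and 62.9.

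Nr1d1 was the only member that fell. Its values were 83.1, 121, 84.5 and 45.3 in cast replicates 1 to 4, against 185, 185, 255 and 305 in naive replicates 1 to 4. Every cast library was thus below every naive library, and the lowest of them, cast replicate 4, still rested on 340 reads. The mean was 83.5 ± 30.9 in cast and 233 ± 58.7 in naive capsules (SD, n = 4 each; log2 fold change -1.52, SE 0.30, 95% interval -2.18 to -0.85, limma adjusted p = 0.0118). The call held in all 20 alternative settings tried, with adjusted p between 9.3e-05 and 0.0423, and the highest was with the replicate number as a block. Nr1d1 lies on the minus strand (chromosome 11, 98767932 to 98775333, GENCODE release M21 on GRCm38) and shares 263 exon bases with Thra, a thyroid hormone receptor gene on the opposite strand. The use of strand in counting is not given in the sources used here, and reads of the shared bases are uncertain. Thra itself was 66.9, 65.6, 48.5 and 52.9 in cast and 60.0, 93.1, 79.5 and 133 in naive replicates 1 to 4, which overlap (log2 fold change -0.59, SE 0.24, limma adjusted p = 0.158).

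Nr1d2, which encodes the related receptor Rev-erb beta, did not pass. It was 98.9, 157, 164 and 114 in cast and 163, 145, 238 and 56.3 in naive replicates 1 to 4. The naive values spanned the whole cast range, with naive replicate 4 the lowest of all 8. The log2 fold change was -0.03 (SE 0.39, 95% interval -0.91 to 0.85, limma adjusted p = 0.968). Without naive replicate 4 it was -0.44 (adjusted p = 0.217), and the interval with all 8 libraries leaves room for changes of either sign. Within libraries, the ratio of the Nr1d1 to the Nr1d2 value was 0.840, 0.773, 0.515 and 0.398 in cast and 1.14, 1.28, 1.07 and 5.43 in naive replicates 1 to 4, with every cast ratio below every naive ratio. Nr1d1 values alone already separated the groups, so this ratio is a description and was not tested.

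The Cryptochromes went in opposite directions by value, with a call for Cry1 alone. Cry1 was 17.6, 18.3, 11.7 and 22.5 in cast replicates 1 to 4, against 7.23, 7.90, 6.94 and 10.3 in naive replicates 1 to 4. All cast libraries were above all naive ones, although the closest pair, cast replicate 3 and naive replicate 4, were 11.7 and 10.3, and naive replicate 4 held 16 reads of the gene (95% counting interval of its value 5.92 to 16.8, counting error only). The mean was 17.5 ± 4.45 in cast and 8.11 ± 1.55 in naive capsules (SD, n = 4 each; log2 fold change 1.01, SE 0.24, 95% interval 0.48 to 1.53, limma adjusted p = 0.0234). Cry1 lies on chromosome 10, 85131700 to 85185064, minus strand (GENCODE release M21). Its call was lost without cast replicate 1, 2 or 4 (adjusted p = 0.0519, 0.0677 and 0.0599), without naive replicate 1, 2 or 3 (adjusted p = 0.0573, 0.0642 and 0.0706), with quantile normalisation (adjusted p = 0.0568) and with the muscle level as a covariate (adjusted p = 0.105), while the log2 fold change stayed between 0.77 and 1.18 in all 20 settings.

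Cry2, the other repressor of the pair, was 47.8, 56.2, 35.6 and 44.4 in cast and 52.9, 67.6, 97.1 and 117 in naive replicates 1 to 4. Only cast replicate 2 and naive replicate 1 overlapped. The log2 fold change of -0.80 did not pass (SE 0.26, 95% interval -1.39 to -0.22, limma adjusted p = 0.0784). It passed in 4 settings, namely without naive replicate 1 (adjusted p = 0.0378), with array weights (0.0316), with the muscle covariate (0.0425) and by DESeq2 on recovered reads (0.0229). The ratio of the Cry1 to the Cry2 value within a library was 0.369, 0.325, 0.330 and 0.508 in cast and 0.137, 0.117, 0.0716 and 0.0884 in naive replicates 1 to 4, with no overlap. Cry1 values alone already separated the groups, so this ratio is a description and was not tested. Cry2 shares 295 exon bases with D930015M05Rik on the opposite strand, so a small part of its reads is uncertain.

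**Figure D2:**
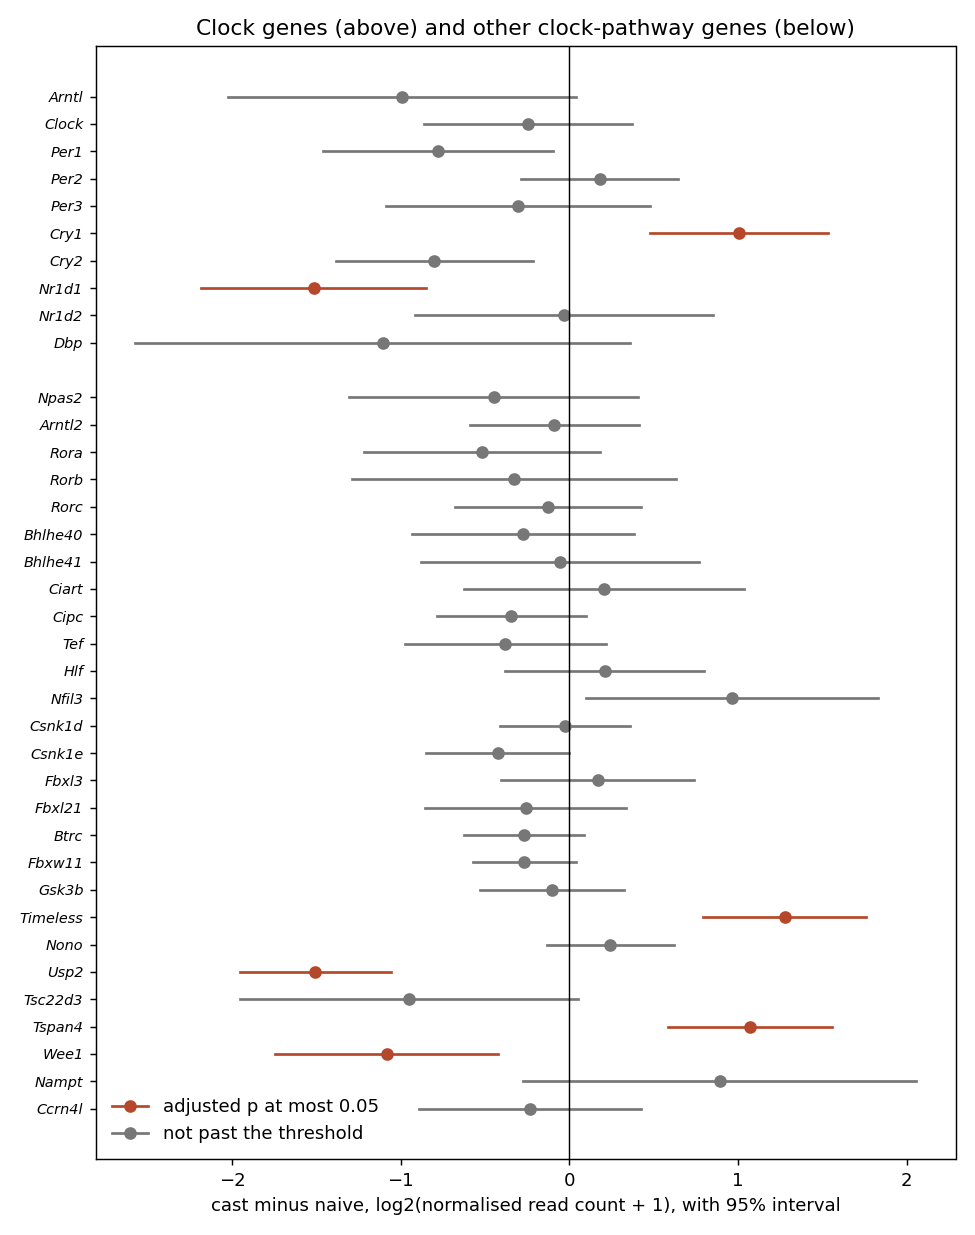
Log2 fold change, cast minus naive, of the 10 clock genes (upper block) and 27 other clock-pathway genes (lower block), with 95% intervals from limma. Points in red passed at an adjusted p of 0.05; these are Cry1 and Nr1d1 above and Timeless, Usp2, Tspan4 and Wee1 below.

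The activators Arntl and Clock did not pass. Arntl was 31.6, 6.14, 6.82 and 13.5 in cast and 23.1, 27.4, 16.0 and 34.3 in naive replicates 1 to 4. Cast replicates 2, 3 and 4 were below every naive library, and cast replicate 1 was above naive replicates 1, 2 and 3. The log2 fold change was -0.99 (SE 0.46, 95% interval -2.02 to 0.04, limma adjusted p = 0.206), and without cast replicate 1 it was -1.44 (adjusted p = 0.0337), so that library decided the call. Clock was 152, 109, 125 and 165 in cast and 208, 199.7, 179 and 91.2 in naive replicates 1 to 4. Here naive replicate 4 was the lowest of all 8, and the other naive libraries were above every cast library (log2 fold change -0.25, SE 0.27, limma adjusted p = 0.615). Without naive replicate 4 the log2 fold change of Clock was -0.52 (adjusted p = 0.0575). With array weights, which give each library a weight by its spread, both passed, Arntl at -1.16 (adjusted p = 0.0265) and Clock at -0.55 (adjusted p = 0.0231).

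Among the Period genes, which encode partners of the Cryptochromes, no member passed. Per1 was 192, 85.9, 67.4 and 81.2 in cast and 141, 167, 168 and 204 in naive replicates 1 to 4. Again cast replicates 2, 3 and 4 were below every naive library, while cast replicate 1 was among the highest of all 8. The log2 fold change was -0.78 (SE 0.30, 95% interval -1.46 to -0.10, limma adjusted p = 0.136), and it was -1.10 without cast replicate 1 (adjusted p = 0.0099) and -0.93 with array weights (adjusted p = 0.00772). Per2 was 44.8, 45.4, 28.9 and 33.1 in cast and 28.8, 29.2, 41.8 and 33.0 in naive replicates 1 to 4, with overlapping groups (log2 fold change 0.18, SE 0.21, 95% interval -0.28 to 0.65, limma adjusted p = 0.624). Per3 was 39.6, 125, 84.4 and 64.0 in cast and 57.7, 86.8, 120.2 and 105 in naive replicates 1 to 4. Its highest and its lowest value were both in cast libraries (log2 fold change -0.30, SE 0.35, limma adjusted p = 0.626).

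Dbp, which encodes an activator of D-box genes and is itself a direct E-box target, was 5.77, 62.9, 53.4 and 14.3 in cast replicates 1 to 4, against 34.1, 46.9, 82.3 and 54.3 in naive replicates 1 to 4. Cast replicates 1 and 4 were below every naive library, and cast replicates 2 and 3 were within the naive range. The fold change did not pass (log2 fold change -1.11, SE 0.66, 95% interval -2.58 to 0.36, limma adjusted p = 0.325) in any of the 21 settings counting this one, the lowest adjusted p being 0.0832 with the muscle covariate. Dbp shares 539 exon bases with Sphk2 on the opposite strand (chromosome 7, 45705088 to 45710203, plus strand for Dbp). Its longest annotated transcript has 1837 nt. Reads of the shared bases are uncertain, and this limits all values of Dbp given here.

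The spread of Dbp among cast libraries was larger than its counting error. Its highest cast value was 10.9 times its lowest, against 2.42 times in naive libraries. The 35 reads in cast replicate 1 gave a 95% counting interval of 4.02 to 8.02, and the 420 reads in cast replicate 2 gave 57.1 to 69.3. On the log2(value + 1) scale the SD of Dbp was 1.54 among cast libraries, above that of 99.5% of the 7814 tested genes with a mean of at least 20, and 0.52 among naive libraries, above that of 74.2%. Arntl had an SD of 1.01 among cast libraries, above 98.2% of those genes, and 0.44 among naive libraries, above 66.5%. With means of 14.5 in cast and 25.2 in naive capsules, Arntl itself fell just short of that minimum mean. A wide cast spread was not limited to members. Pdk4, a glucocorticoid-responsive gene chosen after its values were seen, ranked above 99.5% among cast libraries, whereas Usp2 ranked above 40.3%. These ranks describe the libraries and were not tested.

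Arntl and Dbp stood in reverse order across the cast libraries. From the highest Arntl value to the lowest the order was replicates 1, 4, 3 and 2, and from the lowest Dbp value to the highest it was the same. The order of replicates 3 and 2 is uncertain, as their 95% counting intervals overlap. These were 5.06 to 8.99 and 4.41 to 8.34 for Arntl, and 48.3 to 59.0 and 57.1 to 69.3 for Dbp. The ratio of the Arntl to the Dbp value was 5.49, 0.0976, 0.128 and 0.944 in cast replicates 1 to 4, against 0.677, 0.584, 0.195 and 0.631 in naive replicates 1 to 4. Cast replicate 1 had the highest ratio of all 8 libraries and cast replicates 2 and 3 the lowest. The ratio thus spanned 56.2-fold among cast and 3.48-fold among naive libraries, and the naive range lay inside the cast range.

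**Figure D3:**
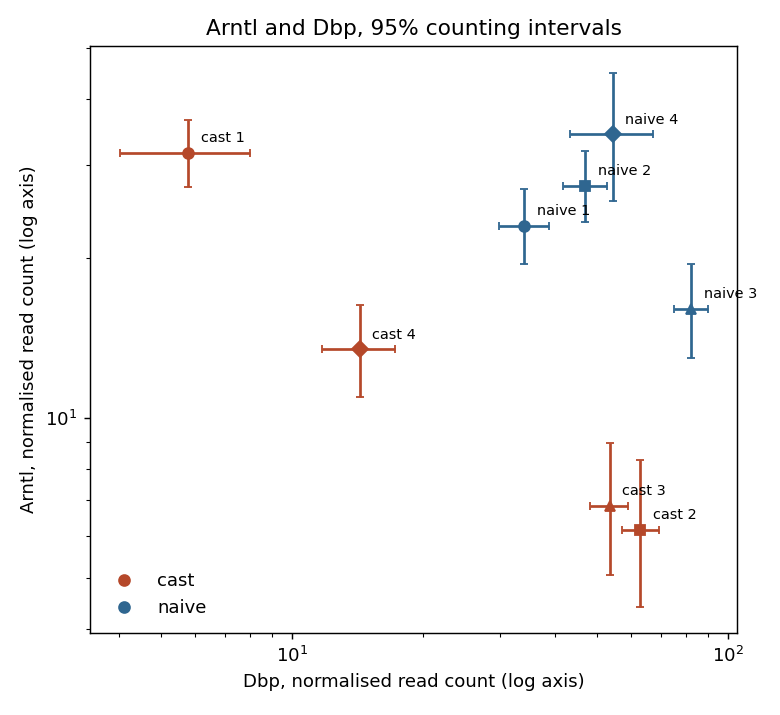
Arntl against Dbp, both as normalised read counts on log axes, in the 4 cast and the 4 naive libraries, with 95% counting intervals. Cast replicate 1 lies at high Arntl and low Dbp, cast replicates 2 and 3 at low Arntl and high Dbp, and the naive libraries have Dbp values of 34.1 to 82.3.

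Some other genes of the pathway separated the cast libraries in the same way, and others did not. Cast replicates 1 and 4 were both above replicates 2 and 3 for 2 of the 10 members (Arntl and Clock) and both below them for 4 (Dbp, Per3, Nr1d1 and Nr1d2), and the remaining 4 members had neither order. For Nr1d1 this rests on a near tie, 83.1 in cast replicate 1 and 84.5 in cast replicate 3. Their 95% counting intervals, 76.0 to 90.6 and 78.0 to 91.5, overlap. Of the 27 other clock-pathway genes, 6 were above, 7 below and 14 in neither order, Rora, Hlf and Usp2 among these 14. Over all genes tested, 14.6% were above, 15.0% below and 70.4% in neither order. This split of the cast libraries was chosen after their values were seen, so the counts are a description. Nfil3, the D-box repressor gene, was 59.0, 18.7, 20.6 and 38.1 in cast and 16.7, 20.6, 8.76 and 17.5 in naive replicates 1 to 4 (log2 fold change 0.96, SE 0.39, limma adjusted p = 0.146). Npas2, a paralog of Clock, was 27.7, 9.59, 7.77 and 14.9 in cast and 22.5, 25.2, 11.6 and 18.1 in naive replicates 1 to 4 (adjusted p = 0.501). Both were thus highest in cast replicate 1 and next highest in cast replicate 4 within the cast group, as Arntl was. Ciart, a repressor of the CLOCK and ARNTL pair, was 0.659, 3.60, 3.41 and 1.87 in cast and 0.904, 2.42, 2.65 and 1.29 in naive replicates 1 to 4 (adjusted p = 0.760), resting on 2 to 25 reads a library. Bhlhe40 (DEC1), a repressor at E-boxes, was 78.6, 167, 198 and 100.4 in cast and 155, 158, 189.5 and 122 in naive replicates 1 to 4 (adjusted p = 0.597). Ciart, Bhlhe40 and Per3 were lowest in cast replicate 1 and next lowest in cast replicate 4 within the cast group, as Dbp was. None of these 5 genes passed the comparison of groups.

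**Figure D4:**
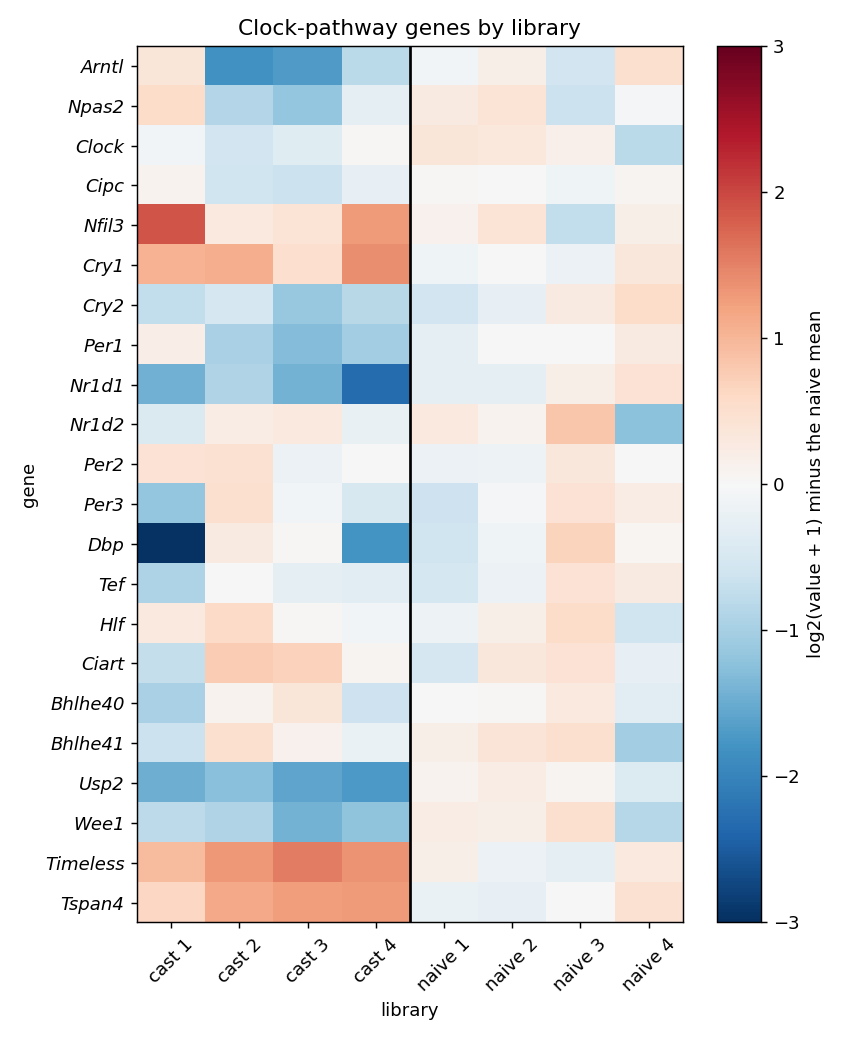
Level of 22 clock-pathway genes in each library as log2(value + 1) minus the naive mean, with cast libraries left and naive libraries right. Cast replicate 1 is high for Arntl, Npas2 and Nfil3 and low for Dbp, Per3 and Ciart, and Usp2 is low and Timeless high in all 4 cast libraries.

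Muscle gene levels ran from high to low across the cast libraries in the same order as Arntl. The order of cast replicates 3 and 2 rests on close values for both, 21.4 and 20.7 for muscle genes and 6.82 and 6.14 for Arntl. Most glucocorticoid-responsive genes shared the split of cast replicates 1 and 4 from replicates 2 and 3, though not always the full order. Summed muscle genes were 407, 20.7, 21.4 and 114 in cast replicates 1 to 4, against 2399, 1702, 3057 and 127 in the naive ones, where Arntl was highest in replicate 4. Of 11 glucocorticoid-responsive genes, 8 were higher in both cast replicates 1 and 4 than in cast replicates 2 and 3, none was lower in both, and Dusp1, Mt1 and Mt2 had neither order. Fkbp5, a co-chaperone of the glucocorticoid receptor and an example chosen after its values were seen, was 297, 85.9, 70.5 and 154 in cast and 60.6, 77.8, 32.7 and 51.1 in naive replicates 1 to 4 (adjusted p = 0.0940). Tsc22d3, or Gilz, was 389, 85.0, 83.6 and 192 in cast and 286, 249, 281 and 376 in naive replicates 1 to 4 (adjusted p = 0.212). The part of muscle content or of glucocorticoid action in the spread of the clock genes was not tested.

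Likeness was measured as Pearson's r of log2(value + 1) over the 8 libraries, among 7596 tested genes with a mean of at least 20, without the 10 members and without predicted or clone symbols. The gene most like Dbp among them was Papss1, an enzyme of sulfate donor synthesis, with r = 0.984 and a Spearman rho of 0.952. Ndn (r = 0.935), the prostacyclin synthase gene Ptgis (0.915), Bhlhe40 (0.899) and Adprh (0.882) followed. Without cast replicates 1 and 4, the libraries farthest from the median of Dbp, r was 0.795 for Papss1 and between 0.155 and 0.389 for the other 4, so the relations of those 4 rest on that pair of libraries. Per3, left out of that ranking as a member, had r = 0.910 with Dbp, and 0.913 without cast replicates 1 and 4. Tef, further down the ranking, had 0.835, and 0.864 without them. The genes most like Arntl were Cipc (r = 0.982), Txnip (0.966), Limd1 (0.964), Tsc22d3 (0.956) and Mapkbp1 (0.942), with r of 0.812 to 0.962 without cast replicates 2 and 3. Cipc encodes an inhibitor of CLOCK, and was 45.2, 27.1, 26.3 and 34.8 in cast and 42.9, 41.8, 37.9 and 44.0 in naive replicates 1 to 4. These values describe 8 libraries that share their groups and depth, and were picked as the highest of many.

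Of 27 other clock-pathway genes, all tested, 2 rose, 2 fell and 23 did not pass. That is 14.8% called, against 12.0% of all genes tested, and their median log2 fold change was -0.24. The 4 genes that passed were Timeless, Tspan4, Usp2 and Wee1. Called genes were absent from the activator paralogs (0 of 2), ROR receptors (0 of 3), E-box repressors (0 of 4), D-box factors (0 of 3) and the kinases and ubiquitin ligase components that set the stability of clock proteins (0 of 7). Unadjusted p values under 0.05 in limma were seen for 1 D-box factor, Nfil3, and 1 stability gene, Csnk1e, and edgeR and DESeq2 called none of these 19 genes.

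Usp2, a deubiquitinase gene that follows the clock in many mouse organs, was 12.2, 14.4, 11.2 and 10.003 in cast, against 38.1, 41.5, 37.9 and 26.5 in naive replicates 1 to 4. No values overlapped, and the call held in all 20 alternative settings (log2 fold change -1.51, SE 0.20, 95% interval -1.96 to -1.06, limma adjusted p = 0.00206). Usp2 shares 400 exon bases with Gm49380 and Gm39325 on the opposite strand, so part of its reads is uncertain. Wee1, a cell cycle kinase gene with E-boxes described in mouse liver, was 21.8, 20.2, 13.8 and 16.0 in cast and 44.8, 43.6, 54.1 and 20.7 in naive replicates 1 to 4. Its lowest naive value, in replicate 4, lay among the cast values (log2 fold change -1.08, SE 0.30, limma adjusted p = 0.0424). The Wee1 call was lost without any library other than naive replicate 4 (adjusted p = 0.0586 to 0.125), with the replicate number as a block (0.0592) and with the muscle covariate (log2 fold change -0.22, adjusted p = 0.594).

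Timeless, which encodes a replication fork protein that also binds clock proteins, was 15.7, 20.4, 24.0 and 20.9 in cast, against 8.74, 6.61, 6.12 and 9.70 in naive replicates 1 to 4. The groups did not overlap (log2 fold change 1.28, SE 0.22, 95% interval 0.79 to 1.76, limma adjusted p = 0.00611). Tspan4, a tetraspanin gene that oscillates in many mouse organs, was 88.5, 128, 138 and 139 in cast, against 49.9, 48.2, 56.4 and 78.9 in naive replicates 1 to 4, again without overlap (log2 fold change 1.07, SE 0.22, limma adjusted p = 0.0131). With the muscle covariate neither passed, at 0.85 for Timeless (adjusted p = 0.0506) and 0.52 for Tspan4 (adjusted p = 0.132). Tspan4 shares 292 exon bases with Chid1 on the opposite strand, and Timeless shares 111 with Gm26847, so part of their reads is uncertain.

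The other named genes of the pathway did not pass. Rora, a ROR receptor gene, was 172, 133, 99.9 and 128 in cast and 254, 243, 207 and 96.4 in naive replicates 1 to 4. Without naive replicate 4, the lowest of the 8, its log2 fold change was -0.83 and passed (adjusted p = 0.0145), against -0.52 with all 8 (SE 0.31, limma adjusted p = 0.336). Tef, a relative of Dbp, was 83.4, 162, 130.2 and 129 in cast and 111, 141, 217 and 193 in naive replicates 1 to 4 (adjusted p = 0.409). Hlf, the remaining D-box activator gene, ranged from 24.5 to 39.0 in cast and from 16.8 to 38.5 in naive libraries (adjusted p = 0.658). Bhlhe41 (DEC2) ranged from 17.6 to 39.7 in cast and from 12.9 to 39.5 in naive libraries (adjusted p = 0.940). Noct, listed under its older symbol Ccrn4l, ranged from 8.80 to 15.2 in cast and from 9.06 to 22.3 in naive libraries (adjusted p = 0.654).

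Per1 can also be induced as an immediate early gene and by glucocorticoids, and the lists of such genes were set beside it. Of 12 immediate early genes other than Per1, 6 fell and none rose, with a median log2 fold change of -1.93. Atf3 (log2 fold change -3.52), Egr3 (-2.53), Nr4a1 (-3.18) and Fosb (-5.03) had the smallest p values (limma adjusted p = 0.00185, 0.00252, 0.00326 and 0.00337). Of 11 glucocorticoid-responsive genes, 2 rose and 3 fell, with a median of -0.64. The metallothionein gene Mt2 rose (log2 fold change 2.09, adjusted p = 0.0110), and Errfi1 (-1.74), Dusp1 (-1.44) and Cdkn1a (-1.52) fell (adjusted p = 0.0112, 0.0386 and 0.0399). These lists were counted and not tested as sets, and 12.0% of all genes passed.

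On a scale per kilobase of the longest annotated transcript, Nr1d1 had the highest level of the 10 in both groups, 30.7 ± 11.4 in cast and 85.5 ± 21.6 in naive capsules (SD, n = 4 each). In naive libraries it stood apart, its lowest level of 67.9 per kilobase being above the highest of Per1 (43.6), Nr1d2 (51.1) and Dbp (44.8), whereas in cast libraries its range overlapped that of Nr1d2. In cast capsules the order of levels below Nr1d1 was Nr1d2 (28.6), Per1 (22.9), Dbp (18.6), Clock (14.1), Per3 (13.1), Cry2 (11.6), Per2 (6.52), Cry1 (5.80) and Arntl (3.63). In naive capsules it was Per1 (36.3), Nr1d2 (32.3), Dbp (29.6), Cry2 (21.0), Clock (17.4), Per3 (15.4), Arntl (6.31), Per2 (5.69) and Cry1 (2.68). Neighbours in these orders overlapped in range, except Cry2 and Per2 in cast, and Nr1d1 and Per1, Per3 and Arntl, and Per2 and Cry1 in naive capsules. The isoforms used in the capsule were not given, so these levels depend on the annotated lengths.

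**Figure D5:**
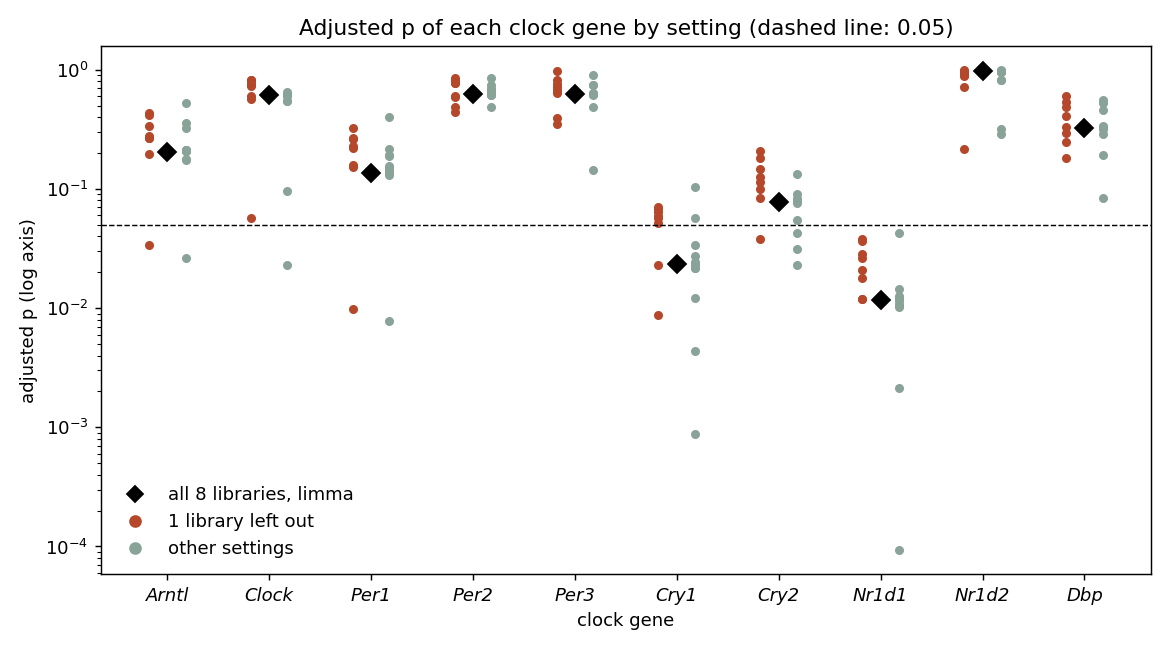
Adjusted p of each clock gene (log axis) with all 8 libraries, with 1 library left out and in the other settings, against the threshold of 0.05 (dashed). Nr1d1 stays at or below 0.0423 in every setting, and Cry1 lies on both sides of the threshold, up to 0.105.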

How the data were processed

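Per the labels' protocols, ribosomal RNA was depleted from 200 ng of total RNA and directional libraries were read as 150-nt pairs. The protocol names Trimmomatic 0.38 and human transcripts (hg38), aligned by Bowtie2 through RSEM. Per the submitters' processing notes, the build was mm10, Trimmomatic was 0.36, and edgeR was used as well. These conflict, and the symbols are of mouse genes. The authors deposited a signal value per gene, a normalised read count. Within 0.01, 100% of values were whole multiples of the value of 1 read, which gave whole reads.

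Values were tested with limma-trend 3.58.1 on log2(value + 1), with genes of mean at least 0.5 and no covariate; alternatives included edgeR 4.0.16 (2039 genes called) and DESeq2 1.42.0 (2754) on recovered reads, against 1810. Tools were R 4.3.3, Python 3.11.15 and matplotlib 3.10.9. In simulated data for this comparison (15120 genes), 20% of genes changed 2-fold and 87% of those changed 4-fold were called by limma, beside 7 false calls among 14920 genes left unchanged. The simulation gave every gene the same spread beyond counting error. These shares therefore need not hold for genes that spread more, such as Dbp. Members, lists and rules were chosen with earlier results of these data known. Named genes were all members, the pathway genes that passed or were listed, 4 genes of smallest p in each of the immediate early and glucocorticoid lists, and 5 genes most like Dbp or Arntl with a mean of at least 20. Noct and Csnk1e fall outside these rules and were named with their values known. Fkbp5 and Pdk4 are said to be chosen after their values were seen. Places and lengths came from GENCODE M21 (GRCm38). Counting intervals are 95% exact Poisson and cover counting error only.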

Additional observations from a re-analysis of the deposited data

Results flagged for a closer look

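Per1 in cast replicate 1, at 192, stood apart from the other cast libraries, which lay between 67.4 and 85.9. The gap to the nearest of them was 0.852 of the range of the group, above Dixon's 95% critical value for 4 samples. This was 1 of 44 groups of 4 examined, 2 for each of 22 named genes, and chance marks about 1 in 20 such groups. Without that library the log2 fold change of Per1 was -1.10 (limma adjusted p = 0.0099), against -0.78 with all 8 libraries (limma adjusted p = 0.136).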

How the results depend on the processing

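Of the 20 alternatives, array weights called 2168 genes higher and 1817 lower in cast, 6 clock genes (Arntl, Clock, Per1 and Cry2 besides Cry1 and Nr1d1) and 8 other pathway genes, against 984, 826, 2 and 4 in the comparison reported. The muscle covariate called 2843 higher and 1369 lower, quantile normalisation 1 clock gene, and DESeq2 1290 lower. Leaving out 1 library gave 512 to 1384 genes higher, 408 to 1288 lower, 1 to 3 clock genes and 3 to 5 other pathway genes. The lowest counts over all genes came without cast replicate 3, and the highest without naive replicate 4. For clock genes the highest came without cast replicate 1, and the lowest without cast replicate 2 or 4 or naive replicate 2 or 3. The cause was not tested. Signs of log2 fold changes that did not pass turned as follows. With the muscle covariate, Clock was 0.60, Nr1d2 0.78, Npas2 0.090, Rora 0.47, Bhlhe41 0.46 and Ciart -0.14. Ciart was -0.011 with quantile normalisation and Hlf -0.012 with array weights. Leaving out 1 library turned Nr1d2 to between 0.0062 and 0.25 in 5 cases, from a range of -0.44 to 0.25, and Bhlhe41 to between 0.0034 and 0.14 in 4 cases, from a range of -0.41 to 0.14. With the replicate number as a block, 782 genes were higher and 589 lower, and 2 clock genes and 3 other pathway genes passed; Wee1 lost its call (adjusted p = 0.0592). Same-numbered libraries had correlations of deviations of 0.08, 0.04, -0.06 and -0.02. These gave no sign of pairing by number, but such correlations cannot show that same-numbered samples were handled apart. Naive replicate 4 limits Cry1 (16 reads) and Ciart (2 reads).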
